A study of Mus musculus with 6 samples.

Results

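Transcripts of 10 mouse genes of iron uptake, storage and export were followed in KVTR cells given dopamine or left blank. The 10 genes were Lcn2, Steap4, Steap3, Tfrc, Slc11a2, Fth1, Ftl1, Ncoa4, Slc40a1 and Cp. They were taken by symbol from a deposited table of 56691 genes, and each symbol matched 1 row. They were chosen by their levels in these same libraries, CPM of dopamine against blank and library by library, so those levels are a description and no p-value is given for any of the 10.

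KVTR cells are a mouse line that the labels call primary clear cell renal carcinoma cells, a kidney cancer of tubule epithelium. RNA of whole cultures was sequenced from 3 blank libraries and 3 dopamine libraries, with no dose or duration of dopamine stated in the labels. The labels name no genotype and no agent other than dopamine, and blank is their only word for the controls. Of the blank libraries, 2 carry the numbers 2 and 3 and the remaining one carries no number. No label says whether libraries came from separate cultures, so it is not known whether the spread between them is that of separate cultures.

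Cells take up most iron as ferric iron bound to transferrin, through the transferrin receptor encoded by Tfrc, reduce it with a STEAP reductase inside endosomes and pass it to the cytosol through the divalent metal transporter encoded by Slc11a2. Surplus iron is stored in the ferritin shell built of heavy chains (Fth1) and light chains (Ftl1), from which the adaptor Ncoa4 delivers it to lysosomes for release. Ferroportin (Slc40a1) exports iron, and ceruloplasmin (Cp), a copper oxidase, converts the exported iron to the form that transferrin binds. Lcn2 encodes lipocalin 2, a secreted protein that binds iron carried by siderophores and that rises in kidney tubules after injury. Steap4, Lcn2 and Cp are also known as genes of the inflammatory response, in which cells hold iron back.

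Several of these transcripts carry an iron-responsive element, a hairpin with a CAGTGN loop to which iron regulatory proteins bind when iron is scarce. Such a hairpin before the coding sequence blocks translation, and hairpins after it protect the transcript from decay. The sites below are shown because they mark members that hold letters of such a hairpin. They were found in the GENCODE M21 transcripts (GRCm38) as a C, 5 bases, the loop CAGTGN with A, C or T as its last letter, and 5 bases that pair with the 5 before the loop (G-U pairs allowed), on the transcript strand. Capitals mark the 6 bases of the loop, and T stands for U.
Fth1: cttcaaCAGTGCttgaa
Ftl1: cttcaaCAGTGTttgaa
Slc40a1: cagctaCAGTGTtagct
Tfrc site A: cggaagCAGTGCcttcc
Tfrc site B: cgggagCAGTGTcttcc
Tfrc site C: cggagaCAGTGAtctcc
Tfrc site D: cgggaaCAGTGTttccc
The ferritin chains shared every base of the site but the last of the loop. The site lay in the 5' UTR of Fth1 (bases 93 to 109, with coding from base 225), of Ftl1 (bases 84 to 100, coding from base 254) and of Slc40a1 (bases 96 to 112, coding from base 320). The 4 sites of Tfrc lay in its 3' UTR, between bases 3321 and 3828 of a transcript whose coding part ends at base 2429. Of 21877 protein-coding genes searched, 222 (1.01%) held such a match, 4 of the 10 members among them. All 5 pairs were required, so an element with a mismatch would be missed and a member without a match may still carry one. A match is a stretch of letters and not evidence of binding, and regulation of translation would not appear in transcript levels.

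Total counts were 16771499 to 23375622 per library. Levels are given as CPM, the count scaled to the library total after TMM scaling, or as FPKM, which also divides by exonic length and is used wherever genes are compared with each other. Libraries of a group differed widely. The unnumbered blank library stood apart by its genes of dividing cells, whose 14 listed members summed to 845 CPM there and to 96.5 to 139 CPM in the other 5. Dopamine 1 also stood apart, with 785 CPM for 12 fibroblast and pericyte markers against 2301 to 3704 CPM elsewhere. Collagen genes carried much of this sum. Thy1, Acta2 and Rgs5 were not lowest in dopamine 1, where Thy1 was at 222 CPM against 191 in blank 2 and 127 in the unnumbered blank library. The other listed markers were lowest there. Of 20 markers of kidney tubule, 4 were at 1 CPM or more in every library and 9 stayed below 1 CPM in every library. The highest was the water channel gene Aqp1 at 14.5 to 116 CPM, followed by Emx2 at 11.4 to 20.1 and Cubn at 3.45 to 8.14 CPM, while Pax8, a transcription factor of kidney epithelium, stood at 0.38 to 1.15 CPM and Aqp2, a water channel of the collecting duct, had no count. Among astrocyte markers, 12 of 15 were at 1 CPM or more in every library, with Gfap, the astrocyte intermediate filament, at 32.4 to 1630 CPM, so the label is used here only as a name. Because whole cultures were sequenced, fewer cells of a type and less RNA per cell cannot be told apart.

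Per length, Fth1 was the most abundant member, with a mean of 2728 FPKM over the 6 libraries, followed by Ftl1 at 1627 and Lcn2 at 947. Cp averaged 203 FPKM and Steap4 146. Tfrc (16.6), Ncoa4 (11.2) and Slc11a2 (10.9) formed a middle group, and Steap3 (1.91) and Slc40a1 (0.50) were the lowest. Neighbours in this order overlapped in their ranges over the libraries, with a single exception: Slc11a2, at 7.40 to 14.5 FPKM, lay wholly above Steap3, at 1.35 to 3.01. The 10 genes together took 0.344% of all counts in the unnumbered blank library and 2.80% in dopamine 2, the lowest and the highest share.

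Lcn2 (chromosome 2, 32274645 to 32278264, minus strand, GRCm39) was at 3363 CPM in blank 2, 915 in blank 3 and 47.3 in the unnumbered blank library. In dopamine 1, 2 and 3 it stood at 1227, 5707 and 4110 CPM. The highest 2 values were thus from dopamine libraries and the lowest 2 from blank libraries, but blank 2 lay above dopamine 1 and the groups overlapped. The means were 1442 ± 1720 CPM for blank and 3682 ± 2271 CPM for dopamine (SD, n = 3), a log2 fold change of 1.35 ± 1.24 (SE). Without the unnumbered blank library it was 0.78, and without blank 2 it was 2.93. The highest value was 121 times the lowest, a range that 0.239% of the 10052 tested genes with a mean of at least 10 CPM reached or passed, against a median range of 1.82 times.

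Steap4 (chromosome 5, 8010457 to 8032213, plus strand), an endosomal and plasma membrane reductase of iron and copper, had the widest range of the 10. It was at 1049 CPM in blank 2, 283 in blank 3 and 3.69 in the unnumbered blank library, where it had 77 counts. The dopamine libraries held 10.9, 623 and 891 CPM, in the order of their numbers. Each group thus held 2 libraries at 283 CPM or more and 1 library at 10.9 CPM or less. The highest value was 284 times the lowest, while the group means of 445 ± 541 and 508 ± 451 CPM (SD, n = 3) gave a log2 fold change of 0.19 ± 1.73. That sign turned without blank 3 (-0.05), the unnumbered blank library (-0.39), dopamine 2 (-0.0042) or dopamine 3 (-0.49), and the value was 1.82 without blank 2.

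Steap3, the endosomal ferrireductase of the transferrin cycle in red cell precursors of mice, varied far less than its relative. It was at 17.9, 10.05 and 7.33 CPM in blank libraries 2, 3 and unnumbered and at 8.66, 10.2 and 11.9 CPM in dopamine 1, 2 and 3. All but blank 2 lay within a narrow band, and the log2 fold change was -0.20 ± 0.38, or 0.23 without blank 2. Per length, Steap4 exceeded Steap3 by 51.0 to 136 times in blank 2, blank 3, dopamine 2 and dopamine 3. In dopamine 1 the ratio of their FPKM values was 2.28, and in the unnumbered blank library it was 0.912.

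The promoters of Lcn2 and Steap4 are shown because these 2 members had the widest ranges and both were lowest in the unnumbered blank library. The windows run from 250 bases before to 50 after the annotated start in RefSeq (GRCm38.p6), Lcn2 at chr2:32387690-32387989 on the minus strand and Steap4 at chr5:7960222-7960521 on the plus strand. Capitals mark matches, on either strand, to GGG and CC with 5 bases between them (NF-kB), TTGCNNAA (C/EBP) or TTCNNNGAA (STAT), letters typical of factors that act in the inflammatory response.
Lcn2: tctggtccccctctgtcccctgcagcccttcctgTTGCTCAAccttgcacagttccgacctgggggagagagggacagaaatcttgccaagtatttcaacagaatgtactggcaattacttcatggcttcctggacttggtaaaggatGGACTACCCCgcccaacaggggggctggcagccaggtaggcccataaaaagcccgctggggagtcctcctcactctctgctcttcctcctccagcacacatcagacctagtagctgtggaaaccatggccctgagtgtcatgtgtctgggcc
Steap4: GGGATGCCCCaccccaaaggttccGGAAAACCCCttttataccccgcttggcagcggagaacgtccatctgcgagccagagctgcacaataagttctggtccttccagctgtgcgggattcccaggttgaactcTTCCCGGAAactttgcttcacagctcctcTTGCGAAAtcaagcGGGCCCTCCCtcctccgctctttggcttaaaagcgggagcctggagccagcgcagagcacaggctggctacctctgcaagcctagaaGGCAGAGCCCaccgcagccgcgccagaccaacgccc
The Lcn2 window held 1 NF-kB match at -102 (GGACTACCCC) and 1 C/EBP match at -216 (TTGCTCAA), counted from the start. The Steap4 window held a STAT match at -116 (TTCCCGGAA), a C/EBP match at -87 (TTGCGAAA) and 4 NF-kB matches, with no overlap between them. Of 32851 promoter windows, 50.8% held the NF-kB letters, 10.8% the C/EBP letters and 8.30% the STAT letters, so the first of these is common by its looseness. Windows were found for 8 of the 10 members. The NF-kB letters were in windows of all 8, among them Ncoa4, Tfrc and Steap3, whose ranges were narrow. The C/EBP letters were also in windows of Cp, Fth1 and Steap3, and the STAT letters were in Steap4 alone. The matches shown thus do not set the 2 members of widest range apart from the rest, except for the STAT match. A match is a description, and nothing about binding was measured.

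Tfrc, which brings in transferrin-bound iron, stood at 103 CPM in both numbered blank libraries and 70.8 in the unnumbered one. It stood at 140.0, 92.2 and 107 CPM in dopamine 1, 2 and 3. The highest and the lowest library belonged to different groups, yet dopamine 2 lay below both numbered blank libraries. The means of 92.4 ± 18.7 and 113 ± 24.5 CPM (SD, n = 3) gave a log2 fold change of 0.29 ± 0.24, and 0.11 without dopamine 1. The unnumbered blank library, where Tfrc was lowest, was the library with the most transcript of dividing cells (Mki67 at 73.2 CPM against 0.80 to 4.57 in the others), and the part of cell division in the level of Tfrc was not tested.

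Slc11a2, the endosomal iron transporter, was at 95.4, 53.9 and 44.5 CPM in blank libraries 2, 3 and unnumbered. In dopamine 1, 2 and 3 it was at 55.5, 86.8 and 83.1 CPM. Blank 2, dopamine 2 and dopamine 3 again held the high values, and the log2 fold change was 0.22 ± 0.33 (0.01 without the unnumbered blank library and 0.60 without blank 2).

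Fth1 (chromosome 19, 9957962 to 9962462, plus strand), the ferritin chain that oxidises iron for storage, took 0.167% to 1.65% of all counts. It stood at 13676 CPM in blank 2, 5974 in blank 3 and 1585 in the unnumbered blank library. The dopamine libraries held 3775, 15828 and 17573 CPM in the order of their numbers. The means were 7078 ± 6121 and 12392 ± 7514 CPM (SD, n = 3), with a log2 fold change of 0.81 ± 0.87. It stayed on the higher side in all 13 alternative fits, from 0.34 without the unnumbered blank library to 1.70 without blank 2, although dopamine 1 lay below both numbered blank libraries. The range of 11.1 times was reached or passed by 2.74% of the genes ranked above.

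Ftl1 (chromosome 7, 45107368 to 45109308, minus strand), the chain that helps nucleate the iron core, moved over a smaller range of 3.30 times. It was at 2528, 2721 and 1132 CPM in blank libraries 2, 3 and unnumbered. It was at 983, 3248 and 2641 CPM in dopamine 1, 2 and 3. Dopamine 1 and the unnumbered blank library were low and the other 4 lay close together, giving a log2 fold change of 0.11 ± 0.54. The sign turned when the unnumbered blank library (-0.19), dopamine 2 (-0.25) or dopamine 3 (-0.0040) was left out, and in limma on log2(FPKM + 1) (-0.01), and the value was 0.47 without dopamine 1.

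The 2 chains did not keep a fixed proportion. The ratio of Fth1 to Ftl1 in FPKM was 2.09 in blank 2, 0.848 in blank 3 and 0.541 in the unnumbered blank library. It was 1.48, 1.88 and 2.57 in dopamine 1, 2 and 3. Heavy chain FPKM thus exceeded light chain FPKM in every dopamine library and in 1 of the 3 blank libraries. The ratios of the groups overlapped through blank 2 (1.16 ± 0.82 and 1.98 ± 0.55, SD, n = 3). Whether a ratio lies above 1 depends on the exonic lengths used, 3469 bases for Fth1 and 1340 for Ftl1. In counts, not divided by length, Fth1 exceeded Ftl1 in every library. Reads shared with processed copies could alter these levels: the copy Ftl1-ps1 held 129 to 642 counts per library and Fth1-ps 2 to 49, against 17150 to 73507 for Ftl1 and 33058 to 386377 for Fth1.

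**Figure D1:**
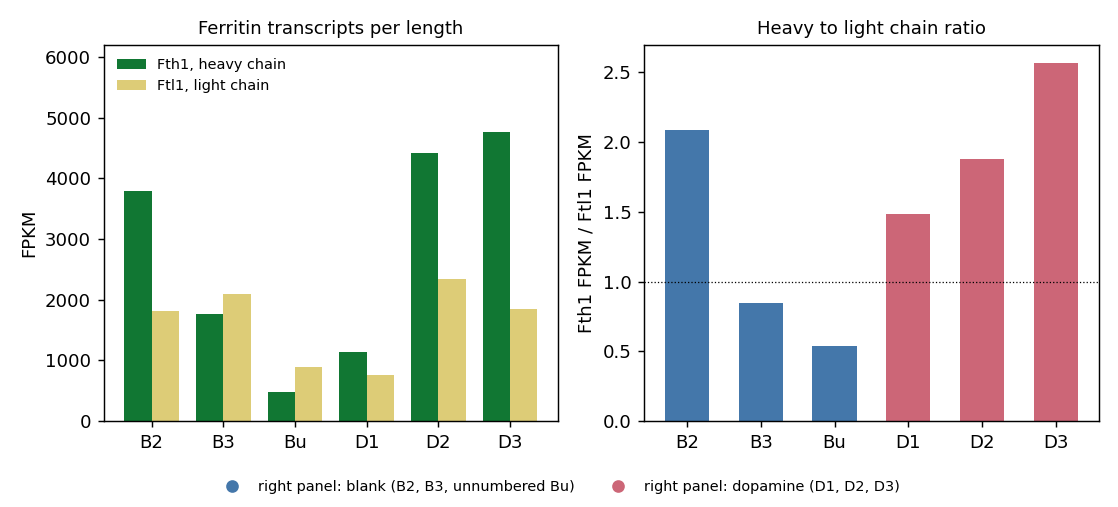
FPKM of the ferritin heavy chain gene Fth1 and light chain gene Ftl1 in each library (left, bars from 0) and their ratio (right, where the dotted line marks equal FPKM, which depends on the exonic lengths used). The ratio lies between 0.541 and 2.57, and blank 2 lies within the range of the dopamine libraries.

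Ncoa4, the receptor that carries ferritin to lysosomes, was the steadiest member. It was at 122, 112 and 98.8 CPM in blank libraries 2, 3 and unnumbered and at 121, 88.2 and 86.9 CPM in dopamine 1, 2 and 3. The highest value was 1.40 times the lowest, a range that 85.0% of the genes ranked above reached or passed. Its log2 fold change of -0.17 ± 0.21 kept its sign in all 13 alternative fits, from -0.42 to -0.08, while dopamine 1 lay within the blank range.

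Slc40a1, which encodes ferroportin, the iron exporter of vertebrate cells, was scarce in all libraries. It had 60, 237 and 36 counts in blank libraries 2, 3 and unnumbered, or 3.47, 12.7 and 1.73 CPM. It had 91, 61 and 24 counts in dopamine 1, 2 and 3, or 5.22, 2.70 and 1.09 CPM. A single library, blank 3, held the highest value, and the log2 fold change of -0.99 ± 0.85 became 0.21 without it and -1.65 without dopamine 1.

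Cp (chromosome 3, 20011218 to 20063309, plus strand) exceeded Slc40a1 in FPKM by 75.7 to 2571 times. It stood at 3907, 1228 and 269 CPM in blank libraries 2, 3 and unnumbered and at 420, 3188 and 2983 CPM in dopamine 1, 2 and 3. Blank 2 was the highest of all and the unnumbered blank library the lowest, 14.5 times apart, so the widest difference lay inside the blank group. The means were 1802 ± 1885 and 2197 ± 1542 CPM (SD, n = 3), and the log2 fold change of 0.29 ± 1.03 turned to -0.22 when the unnumbered blank library was left out and to -0.10 when dopamine 2 was, and it was 1.54 when blank 2 was.

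**Figure D2:**
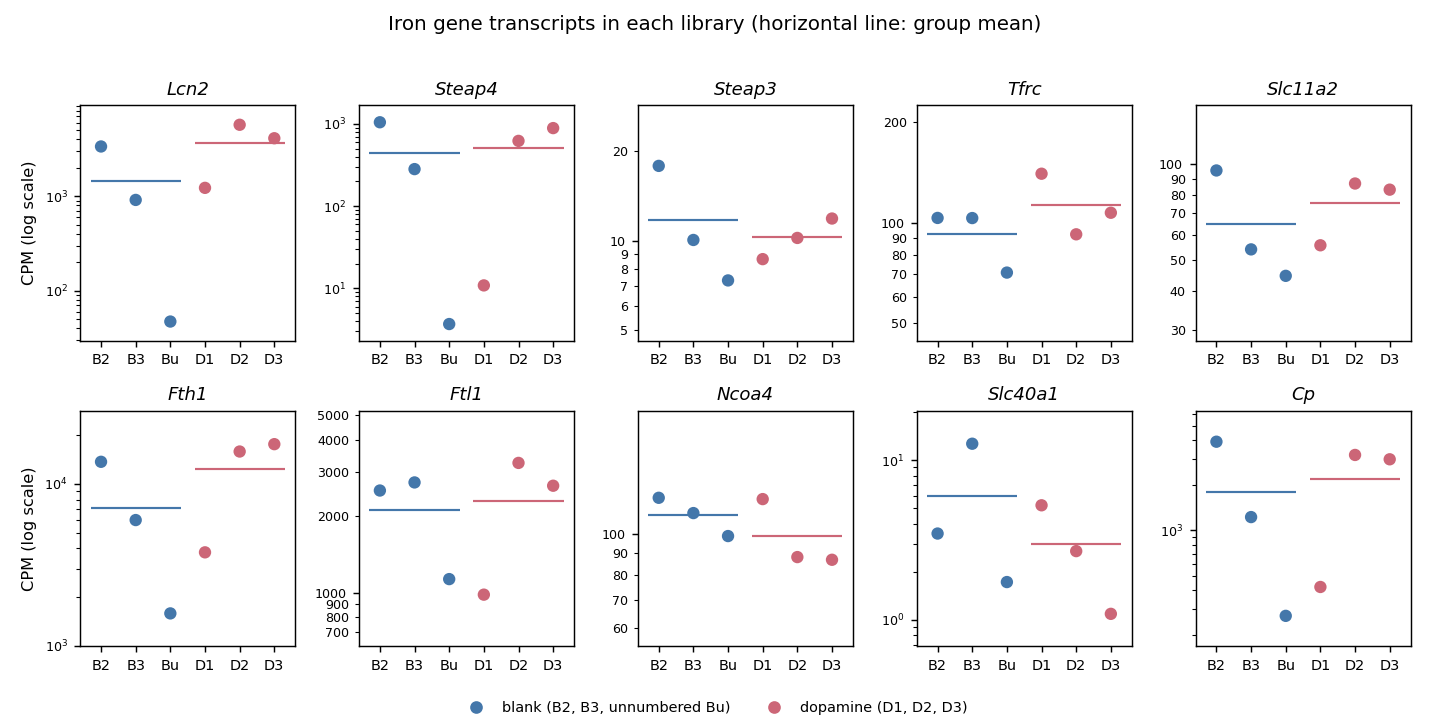
CPM of each of the 10 genes on a log axis, with 1 point per library (blank 2, blank 3 and the unnumbered blank library in blue, dopamine 1, 2 and 3 in red) and a line at each group mean. Lcn2, Steap4, Fth1 and Cp are high in blank 2, dopamine 2 and dopamine 3 and lowest in the unnumbered blank library, and the groups overlap for every gene.

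The comparison of dopamine with blank asks which iron genes differ in transcript level after treatment. Of the 10 members, 7 lay on the higher side and 3 (Steap3, Ncoa4 and Slc40a1) on the lower side, and for 0 of the 10 did the 3 dopamine values lie wholly outside the 3 blank values, against 8.48% of the 15420 genes tested. All 10 passed the filter on low counts. Over all genes, edgeR's quasi-likelihood test called 0 of 15420 (0%) at a Benjamini-Hochberg adjusted p of 0.05, with 454 (2.94%) under an unadjusted 0.05, while 20 (0.130%) were called by DESeq2.

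**Figure D3:**
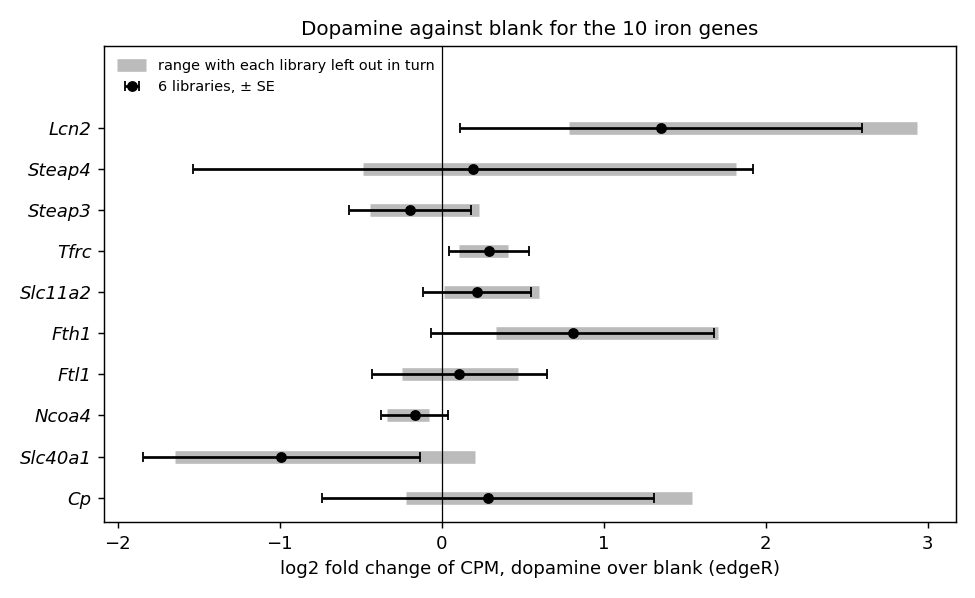
Log2 fold change of each gene, dopamine over blank, from the 6 libraries (point with its standard error) and the range obtained when each library was left out in turn (grey bar). The range crosses 0 for Steap4, Steap3, Ftl1, Slc40a1 and Cp.

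Library by library, the unnumbered blank library held the lowest level of 7 members, and blank 2 the highest level of 5. The 15 listed astrocyte markers summed to 7830, 2604 and 1280 CPM in blank libraries 2, 3 and unnumbered and to 1237, 6299 and 5404 CPM in dopamine 1, 2 and 3. Abundant genes such as Slc1a3 and Gfap carried this sum, and other markers went another way: Gja1 was at 485, 315 and 331 CPM in the blank and 381, 336 and 222 CPM in the dopamine libraries, and Aldh1l1 was higher in the unnumbered blank library (201 CPM) than in blank 2 (193 CPM). The part of these genes in the levels of Lcn2, Steap4, Fth1 and Cp was not tested. Of 13 markers of neutrophils, which store lipocalin 2 in granules, 11 stayed below 1 CPM in every library. S100a9 and Retnlg had no count, and the list summed to 2.62 to 10.3 CPM. The exceptions were Mmp9, at 1.71 to 6.45 CPM, and Prtn3, at up to 2.92 CPM in dopamine 2 and with no count in the unnumbered blank library. The part of neutrophils in the level of Lcn2 was not tested. Macrophages, which recycle iron, were represented by 14 markers of leukocytes that summed to 38.6 to 87.4 CPM in the blank libraries and dopamine 1 and to 109 and 179 CPM in dopamine 3 and 2, of which 7 stayed below 1 CPM throughout and Cd3e had no count. Cd68 made up most of that sum in every library but blank 2. It stood at 55.0 CPM in blank 3, 19.7 in the unnumbered blank library and 84.6, 128 and 62.9 CPM in dopamine 1, 2 and 3. Lyz2, the lysozyme gene of macrophages, was at 34.02, 0.59 and 13.2 CPM in blank libraries 2, 3 and unnumbered and at 0.92, 38.3 and 32.9 CPM in dopamine 1, 2 and 3. Adgre1, a surface marker of mouse macrophages, was at 4.92, 0.16 and 1.15 CPM and at 0.46, 3.53 and 4.73 CPM in the same order. Both were highest in blank 2, dopamine 2 and dopamine 3, where Lcn2 and Steap4 were also highest. So were C1qa, C1qb and C1qc, at 2.03 CPM or less. Other markers of the list went another way: Cd68 was at 39.5 CPM in blank 2, below blank 3 and dopamine 1. Cd14 was about as high in the unnumbered blank library (2.35 CPM) as in blank 2 (2.37 CPM). The part of these genes in the levels of Lcn2 and Steap4 was not tested. Markers of red cell precursors, which rely on Tfrc, summed to 1.01 to 3.53 CPM, with Hba-a2 and Hbb-bt at no count.

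Genes were ranked by how closely their log2 CPM, centred on their own mean, tracked that of Lcn2 over the 6 libraries. Among 10052 genes the nearest was Lbp, which encodes the lipopolysaccharide-binding protein (root mean square difference 0.41 log2 units), with 188, 89.3, 4.22, 60.8, 269 and 252 CPM in blank 2, blank 3, the unnumbered blank library and dopamine 1, 2 and 3. Next came Vat1l (0.63), the apolipoprotein gene Apoc1 (0.77), the secretory granule gene Scg3 (0.79) and the complement gene C3 (0.82). Apoc1 stood at only 0.096 CPM in the unnumbered blank library, near the floor. Its distance, and so its rank, depends on the prior count of 2 that was added before taking logs. Of the other members, Fth1 took rank 35 (1.21) and Cp rank 46 (1.28), while Steap4 took rank 324 (1.77), as its level in dopamine 1 was far lower than that of Lcn2. For Tfrc the nearest were Slc25a15 (0.07), Napepld (0.07), Zhx3 (0.08), Vma21 (0.09) and Trappc2 (0.09). These differences describe 6 libraries only, and all genes share the same libraries and scaling.

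**Figure D4:**
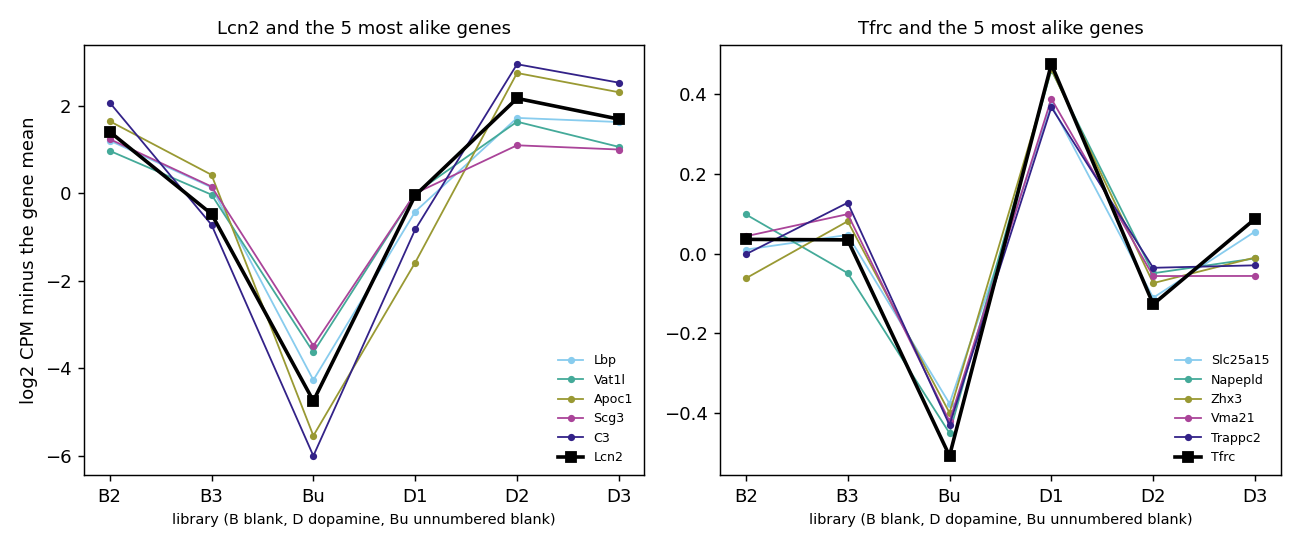
Log2 CPM, drawn without a prior count, minus the gene's own mean in each library for Lcn2 (left) and Tfrc (right) with the 5 genes most like each. Lines only join the points of a gene. Lcn2 and its 5 neighbours are lowest in the unnumbered blank library and higher in blank 2, dopamine 2 and dopamine 3, and Tfrc and its neighbours are highest in dopamine 1, over a far narrower range.

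Beyond the 10 members, 66 other genes of iron handling were listed, of which 57 were tested. By edgeR's quasi-likelihood test 0 passed in either direction, with 1 (Heph) under an unadjusted 0.05, and 0 were called by DESeq2. There were 36 on the higher and 21 on the lower side, with a median log2 fold change of 0.14 against 0.01 over all genes tested. In 6 of the 57 the groups did not overlap, where 8.48% of all genes tested did so. Hepcidin, the hormone that removes ferroportin from the cell surface, was not detected: Hamp and Hamp2 had no count in any library, so a level of up to 0.179 CPM remained possible in the library of lowest depth.

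Heph encodes hephaestin, a membrane oxidase related to ceruloplasmin that works with ferroportin. It was at 7.23, 10.2 and 13.6 CPM in blank libraries 2, 3 and unnumbered and at 3.84, 4.95 and 6.32 CPM in dopamine 1, 2 and 3. Each dopamine value lay below each blank value (log2 fold change -1.03 ± 0.36, edgeR adjusted p = 0.9997), and the difference did not pass the threshold.

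Among uptake genes (12 tested, 8 on the higher side), Trf, which encodes transferrin, split the libraries without regard to treatment. Blank 2, dopamine 2 and dopamine 3 held 112, 118 and 116 CPM. In blank 3, the unnumbered blank library and dopamine 1 it stood at 6.84, 10.7 and 10.8 CPM. Slc22a17, a receptor for lipocalin 2, was at 54.1 to 82.2 CPM among blank and at 85.7 to 124 CPM in dopamine libraries, with no overlap (0.51 ± 0.24, edgeR adjusted p = 0.9997).

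Genes of haem handling (18 tested, 10 on the higher side) included Hmox1, the haem oxygenase that frees iron from haem, at 2414, 1243 and 146 CPM in blank libraries 2, 3 and unnumbered and 221, 1975 and 2057 CPM in dopamine 1, 2 and 3 (0.16 ± 1.06). Slc48a1, a haem transporter of lysosomes, was at 112 to 340 CPM among blank and at 247 to 473 CPM in dopamine libraries (0.63 ± 0.44). Both were lowest in the unnumbered blank library.

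Mitochondrial iron and iron-sulphur cluster genes (12 tested) lay on the higher side in 10, with a median of 0.20. Lyrm4, a partner of the cysteine desulphurase, was at 6.94 to 7.67 CPM among blank and at 9.15 to 14.3 CPM in dopamine libraries (0.66 ± 0.28, edgeR adjusted p = 0.9997), and Cisd1, an iron-sulphur protein of the outer membrane, gave 0.31 ± 0.19. All 4 genes of iron sensing were on the lower side, with Aco1, which encodes iron regulatory protein 1, at -0.04 ± 0.20 and Fbxl5, the ubiquitin ligase subunit that senses iron, at -0.29 ± 0.26. The cytosolic iron chaperones Pcbp1 (0.0038 ± 0.27) and Pcbp2 (0.15 ± 0.21) and the hepcidin axis gene Id1 (0.48 ± 0.24), a target of BMP signalling, did not pass either.

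**Figure D5:**
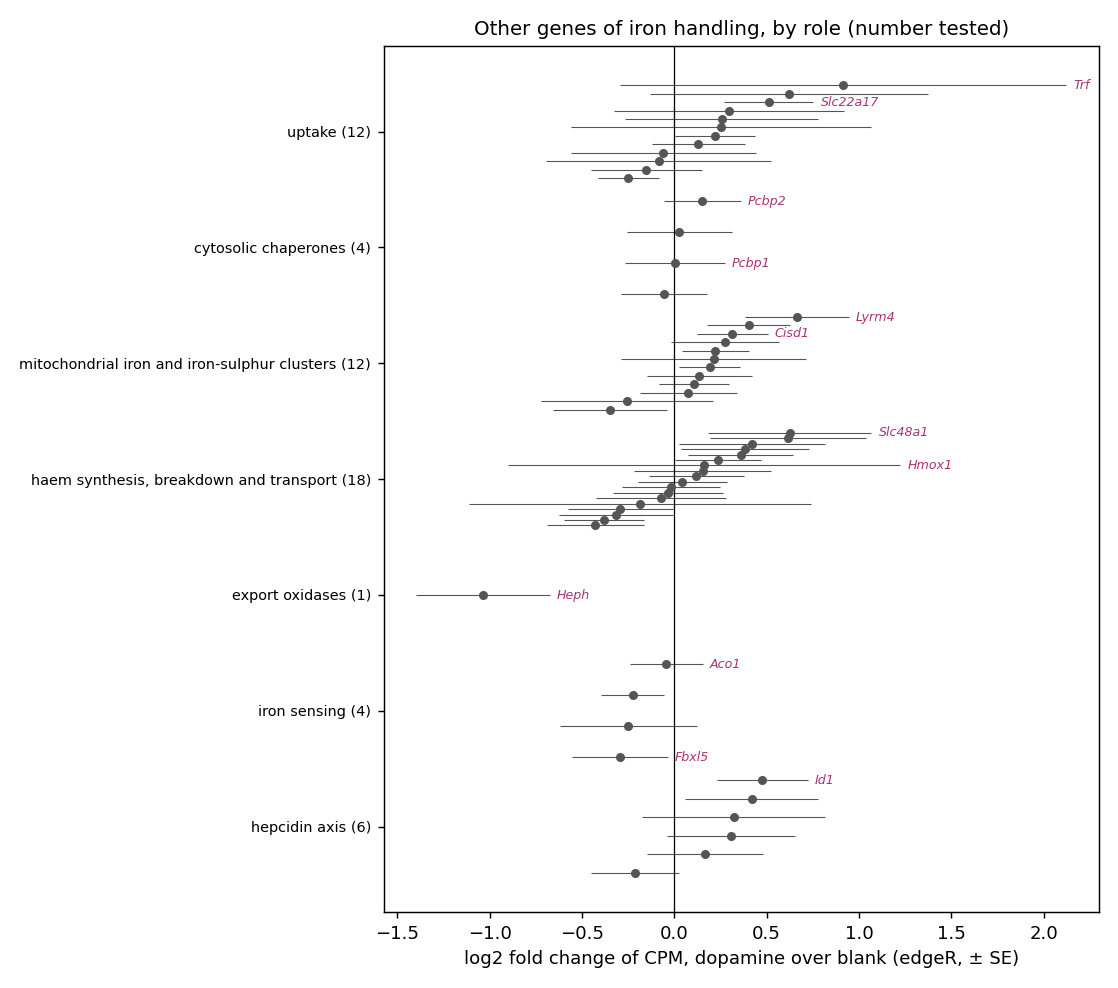
Log2 fold change with its standard error, dopamine over blank, for the 57 tested genes of iron handling outside the 10, by role; names mark the genes given in the text. Heph lies lowest at -1.03 and Trf highest at 0.91, and 0 of the 57 passed the adjusted threshold.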

How the data were processed

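Raw read counts and FPKM values per Ensembl gene were made and deposited by the authors, per the file headers. The libraries used SMART-Seq HT cDNA amplification, a Vazyme library kit and paired 150-base reads, per the labels' protocols. The submitters' processing notes give the build as GRCm39; the aligner, the counter, its strand setting and the annotation were not given in the sources used here. This chemistry keeps no strand, so overlapping genes and near-identical copies can share reads.

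Columns were matched to samples by the names in the labels. The blank column without a number was used as a blank library and was tied to blank 1 by elimination only. A further 2 FPKM columns, which could not be tied to a sample, were not used. FPKM of all 6 libraries was computed from counts and exonic length, and it equalled the deposited FPKM of the 4 matched columns (within 0.5%). Counts were filtered with filterByExpr (15420 genes kept), scaled by TMM and fitted with edgeR 4.0.16 in R 4.3.3, dopamine against blank, 2-sided, with a threshold of 0.05 on the Benjamini-Hochberg adjusted p. DESeq2 1.42.0 and limma 3.58.1 were alternatives, and all were tested on simulated data. A count of 0 allows up to 3 counts, 0.128 to 0.179 CPM of unscaled totals, which covers counting error only. Replicate libraries differed by more than sampling noise.

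The 10 members, the gene lists and the motifs were chosen with earlier results of these data known. Outside the members, the text names in each role the tested gene of highest FPKM and that of largest fold change, and the 5 genes most like Lcn2 and Tfrc. Hamp and Hamp2, Mki67, Pax8, Gfap and other markers were named after their values were seen.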

Additional observations from a re-analysis of the deposited data

How the results depend on the processing

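Each fit was repeated under 13 alternatives: RLE size factors, no filter on low counts, a filter at a mean FPKM of 1 in either group (which removed Slc40a1), DESeq2, limma on log2(FPKM + 1), each library left out in turn, and the 4 libraries numbered 2 and 3 alone, with and without the replicate number as a block. The count of genes called was 0 in all but DESeq2, which called 20. It was 0 to 0 with a library left out and 0 with the replicate block. The count of other iron genes called was 0 throughout. The labels do not say whether libraries of the same number are paired. Among the 4 libraries numbered 2 and 3, the deviations of blank 2 and dopamine 2 from their numbered group means correlated at -0.0886 across genes. That value leaves out dopamine 1 and the unnumbered blank library, so it does not settle whether the libraries are paired. With the block the log2 fold change of Tfrc was -0.06 and that of Ncoa4 -0.42 (without it -0.05 and -0.42). Among members, Lcn2, Slc11a2, Fth1 and Ncoa4 kept their sign in every alternative, and RLE scaling turned no sign. Slc40a1 had as few as 24 counts in a library, which limits its precision.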

Other observations

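Lcn2, Cp and Steap4 are also counted among genes of the acute phase and NF-kB response. Of 20 other genes listed for that response, 16 were at 1 CPM or more in every library, and those given here were chosen after their values were seen. The complement gene C3 stood at 4660, 672 and 17.3 CPM in blank libraries 2, 3 and unnumbered and at 623, 8552 and 6383 CPM in dopamine 1, 2 and 3. Saa3, a serum amyloid gene, was at 82.7, 4.22 and 1.63 CPM and at 0.57, 23.1 and 33.6 CPM in the same order. The chemokine gene Cxcl5 was at 65.4, 20.8 and 14.6 CPM and at 13.0, 39.5 and 69.7 CPM. These 3 genes were highest in blank 2, dopamine 2 and dopamine 3, where Lcn2 was also highest. Tnfaip3, which encodes a ubiquitin-editing inhibitor of NF-kB, was highest in the unnumbered blank library, at 65.0 CPM against 25.0 to 37.8 CPM elsewhere. Nfkbia, which encodes the NF-kB inhibitor and is itself an NF-kB target, stayed at 81.9 to 125 CPM, and Vcam1, an adhesion molecule gene, at 1008 to 1603 CPM with its highest values in dopamine 1 and the unnumbered blank library. Il6, which encodes the cytokine that induces hepcidin in liver, was at 88.9, 94.5 and 6.66 CPM in the blank libraries and at 0.29, 23.5 and 16.2 CPM in the dopamine libraries.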
